A study of Mus musculus with 14 samples.

Results

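The Notch receptors, ligands and targets were measured in mouse cells with and without the Rb gene family, before and after differentiation. The set was chosen by gene symbol, with no cutoff on measured values. It was drawn up with earlier results of these data known. It held the receptors Notch1, Notch2, Notch3 and Notch4, the ligands Jag1, Jag2, Dll1 and Dll3, and the target genes Hes1 and Hey1. These were 10 of the 18194 genes represented on the array. All probe sets of these symbols were taken, which made 18 of 45101. A probe set is a group of short probes on the array that read 1 transcript region together. All 10 genes had a probe set that passed the filter on low values, as did 15 of the 18 probe sets. The others, 1 of Notch2 and 2 of Notch4, are described by their range below.

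Notch receptors are membrane proteins that are cut when a ligand on a neighbouring cell binds them, by ADAM proteases and then by the gamma-secretase complex. The freed inner part enters the nucleus, joins the DNA-binding protein RBPJ and switches on genes such as Hes1 and Hey1, which encode transcriptional repressors. In stem cell cultures and embryos the pathway is known for its part in the choice between neural, mesodermal, cardiac and endothelial fates.

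Embryonic stem cells (ESC) are undifferentiated cells, and embryoid bodies (EB) are the aggregates in which they differentiate. The 14 arrays fell into 4 groups, with 1 array for each cell line and stage. TKO EB had 5 arrays (lines 2-55-2, 14-14-4, 7-4-1, Dutch and Ta1-12) and WT EB had 3 (lines B21, J1 and R1). TKO ESC had 3 arrays (lines 7-4-1, Dutch and Ta1-12) and WT ESC had 3 (lines B21, J1 and R1). WT is wild type, and TKO was taken to stand for loss of the 3 Rb family genes Rb1, Rbl1 and Rbl2 (triple knockout), since the series title names that family and the labels do not write the term out. These genes encode pocket proteins, which bind E2F transcription factors. The alleles, the origin of each line, whether a line is 1 clone, and the length and medium of EB culture are not given in the sources used here. Array values below follow the order of lines just given.

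Some arrays stood apart from the rest of their group. Array medians lay between 83.2 and 107.9. The intensities of 8 pluripotency markers summed to 556 to 62694 in TKO EB, with the highest values in Dutch (62694) and 14-14-4 (50212), against 825 to 1485 in WT EB. The sum was 79370 to 85844 in TKO ESC and 63470 to 85514 in WT ESC. Rbl1 intensity was 31.7, 15.9, 38.3, 377 and 1096 in TKO EB, against 586, 1089.6 and 493 in WT EB. It was 24.5, 250.3 and 493 in TKO ESC, against 694, 462 and 356 in WT ESC. The line labelled TKO Ta1-12 was thus within the WT range as ESC and above it as EB. Rb1 and Rbl2 overlapped between TKO and WT at both stages, and the sources used here do not say where the probes lie relative to the deleted parts. TKO below means labelled TKO, and results that depend on these lines are also given without them.

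On differentiation the receptors Notch1 and Notch2 and the target Hes1 rose in both genotypes and the ligand Dll3 fell in both, while no Notch gene passed the test between TKO and WT cells. In TKO EB versus TKO ESC, 5 of 10 Notch genes rose (Notch1, Notch2, Notch3, Hes1 and Hey1) and 1 fell (Dll3), where 20.8% of all 14365 genes tested rose and 14.9% fell. In WT EB versus WT ESC, 3 of 10 rose (Notch1, Notch2 and Hes1) and 2 fell (Notch4 and Dll3), where 26.2% of all genes rose and 17.4% fell. The median log2 fold change of the 10 genes was 0.70 in TKO cells, beside 0.08 over all genes tested, and 0.53 in WT cells, beside 0.13. A call here is an adjusted p under 0.05 from limma, a linear model fitted over all genes with 1 mean per group.

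Counted by probe set, 7 of the 15 tested passed in TKO EB versus TKO ESC (35% of all 31122 probe sets tested) and 5 of 15 in WT EB versus WT ESC (40.3% of all). The median log2 fold change of these 15 was smaller than that of the 10 genes, at 0.30 in TKO and 0.155 in WT cells. Over all probe sets tested it was 0.02 and 0.06. The EB and ESC ranges were apart for 5 of 10 genes in TKO cells (35.7% of all genes) and for 7 of 10 in WT cells (60.2% of all genes). Without the TKO EB arrays of Dutch and 14-14-4, 5 of 10 genes passed in TKO cells, and without line Ta1-12 at both stages 4 of 10 did. The shares of all genes called in these fits are not given here, so these counts cannot be set against the whole array. With quantile normalization, or with each array centred on its median, 5 genes rose and 2 fell in TKO cells, the added one being Notch4. These settings called 37.5% and 35.5% of all genes in this comparison, beside 35.7% as deposited.

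Markers of some differentiated cell types rose over the same step, while those of neurons and presomitic mesoderm did not. In TKO EB versus TKO ESC, 6 of 7 fibroblast markers, 6 of 6 endoderm, 4 of 7 smooth muscle and pericyte, 3 of 6 cardiac, 3 of 6 neural progenitor and 1 of 9 endothelial markers tested rose, while 1 other endothelial and 4 of 8 pluripotency markers fell. In WT EB versus WT ESC these counts were 6 of 7, 6 of 6, 4 of 7, 3 of 6, 2 of 6 and 4 of 9 rising, and 8 of 8 pluripotency markers falling. Of 5 neuron markers 0 rose and 1 fell in each genotype, and of 4 presomitic mesoderm markers tested 0 rose, with 0 falling in TKO and 1 in WT cells. The neuron markers summed to 624 to 10092 in TKO EB, against 9473 to 10831 in TKO ESC, and to 716 to 3471 in WT EB, against 9874 to 10432 in WT ESC. The median log2 fold change of these 5 markers was -0.21 in TKO and -0.50 in WT cells, so the sums do not stand for each marker. The 7 fibroblast markers summed to 19331 to 88315 in TKO EB, against 401 to 519 in TKO ESC, and to 73999 to 84529 in WT EB, against 643 to 706 in WT ESC. In such bulk samples, a change in the number of cells of a type and a change in RNA per cell cannot be told apart, and the part of these cell types in the Notch results was not tested.

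**Figure D1:**
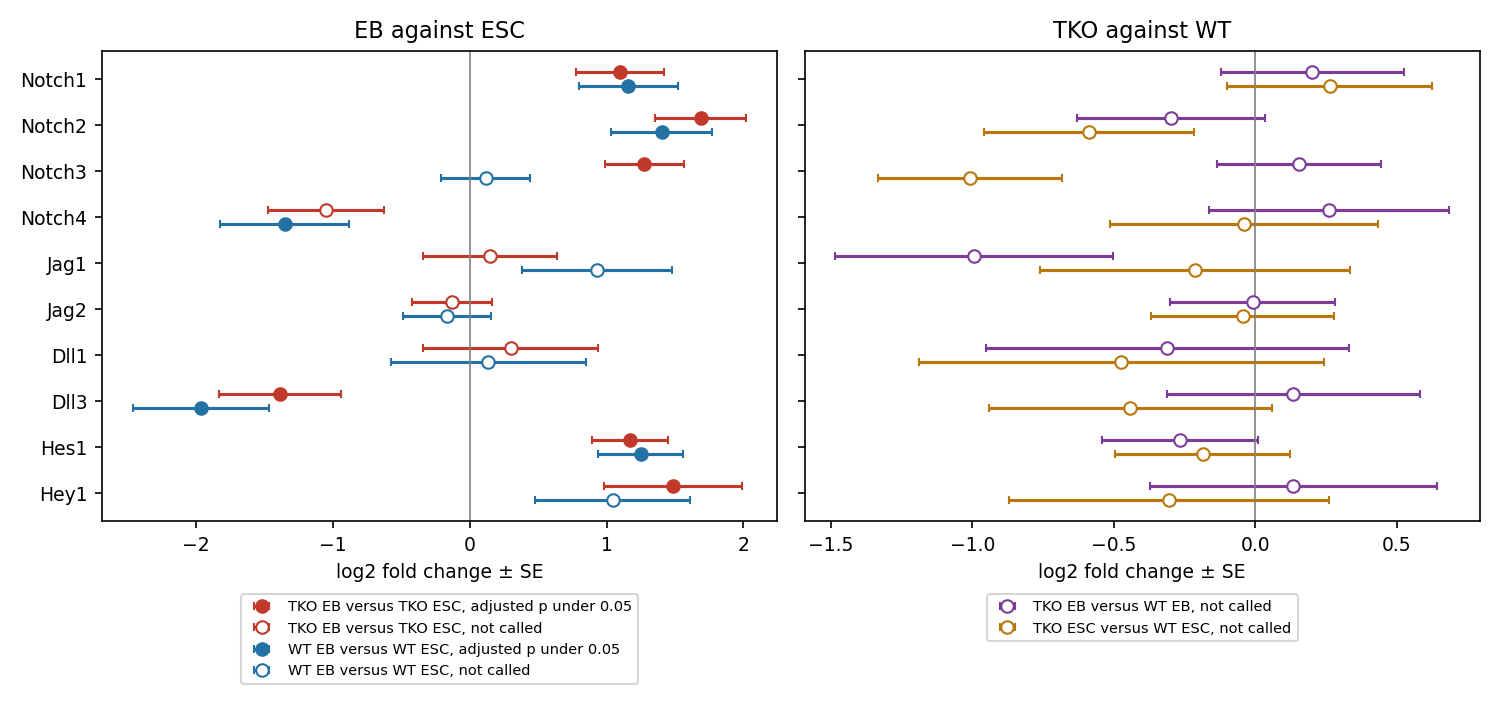
Log2 fold change (horizontal axis) with its standard error (bars) of each Notch gene, for EB against ESC in TKO and WT cells (left) and for TKO against WT in EB and ESC (right). Filled points passed an adjusted p of 0.05: 6 genes in TKO and 5 in WT cells on the left, and 0 on the right, where Notch3 in ESC (-1.01) and Jag1 in EB (-0.99) lay farthest from 0.

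The receptors did not move as a group: Notch1 and Notch2 rose on differentiation in both genotypes, Notch3 rose in TKO cells, and Notch4 fell in WT cells. Neither Notch3 nor Notch4 passed for the difference between the changes in TKO and WT cells. Notch1, the receptor best known from T cell development and neural progenitors, lies on chromosome 2 from 26457902 to 26503822 in GRCm38.p6, the RefSeq assembly used for all positions here. Notch2, needed in kidney, bile duct and marginal zone B cells, lies on chromosome 3 from 98013538 to 98150367. Notch3, known from vascular smooth muscle, lies on chromosome 17 from 32120820 to 32166896. Notch4, a receptor of endothelium, lies on the same chromosome from 34564286 to 34588543. The sources used here do not place each probe set within its gene.

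Of the 10 genes, 8 matched a RefSeq promoter entry, with 9 promoters between them, and the 250 bases before the start site were searched. The targets Hes1 and Hey1 had no entry, so the motif counts below cover receptors and ligands only. The promoters of the receptors that rose in TKO cells are shown, 5′ to 3′ on the strand of the gene, with each GC box (GGGCGGG on either strand, a sequence that SP and KLF factors bind) in capitals. They lie at chr2:26503823-26504072 (minus strand), chr3:98013288-98013537 (plus strand) and chr17:32166891-32167140 (minus strand).
Notch1: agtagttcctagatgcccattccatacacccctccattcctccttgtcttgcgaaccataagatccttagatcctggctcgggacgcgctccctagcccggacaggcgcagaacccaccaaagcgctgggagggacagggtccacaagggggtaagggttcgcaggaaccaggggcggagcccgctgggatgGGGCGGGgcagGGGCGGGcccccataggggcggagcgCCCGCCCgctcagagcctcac
Notch2: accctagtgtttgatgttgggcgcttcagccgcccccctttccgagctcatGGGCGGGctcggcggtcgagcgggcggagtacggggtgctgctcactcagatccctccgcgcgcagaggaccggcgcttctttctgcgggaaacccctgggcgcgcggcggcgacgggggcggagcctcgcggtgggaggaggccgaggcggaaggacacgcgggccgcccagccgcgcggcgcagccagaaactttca
Notch3: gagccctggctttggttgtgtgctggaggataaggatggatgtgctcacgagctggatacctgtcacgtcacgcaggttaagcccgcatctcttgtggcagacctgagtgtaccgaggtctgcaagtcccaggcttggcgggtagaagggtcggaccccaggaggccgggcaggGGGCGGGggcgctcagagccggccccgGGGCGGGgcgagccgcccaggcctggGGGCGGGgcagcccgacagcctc
The Notch1 promoter held 3 GC boxes, at positions -58, -47 and -21 from the start site. That of Notch2 held 1 at -199, and that of Notch3 held 3 at -76, -49 and -23. Jag2 was the other gene with this motif, so 4 of the 9 promoters had it, beside 23.4% of all 32851 promoters in the table. The core letters of an RBPJ site, TGGGAA, were in 0 of the 9 (21.6% of all), and the E2F letters TTTCGCGC or TTTGGCGC were in 0 (0.7% of all). The HES and HEY letters CACGTG were in 0 (6.0% of all) and CACNAG, the N-box, in 3 (36.7% of all). All motifs were searched on both strands of these 250 bases. The GC content of the 9 promoters ran from 52.0% to 87.2%, beside a median of 52.4% over all promoters.

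Notch1, by its brighter probe set, had 1779, 1582, 1509, 792 and 2001 in TKO EB, against 642, 633 and 789 in TKO ESC. It had 1419, 1919 and 757 in WT EB, against 515, 709 and 509.6 in WT ESC. Every EB array lay above every ESC array of its genotype, by little in TKO Dutch, at 792 against a highest TKO ESC array of 789, and the genotypes overlapped at each stage. Mean log2 intensity was 10.52 ± 0.52 in TKO EB, 10.31 ± 0.68 in WT EB, 9.42 ± 0.18 in TKO ESC and 9.16 ± 0.27 in WT ESC (SD; n = 5, 3, 3 and 3). Notch1 rose by 1.10 ± 0.32 (adjusted p = 0.0194) in TKO cells and by 1.16 ± 0.36 (adjusted p = 0.0215) in WT cells on the log2 scale. The second probe set rose in TKO cells, at 0.98 ± 0.26 (adjusted p = 0.011), and in WT cells its difference was 0.34 ± 0.29 (adjusted p = 0.372). The call in WT cells was lost without WT EB B21 (adjusted p = 0.0687), WT EB J1 (0.0900), WT ESC B21 (0.0660) or WT ESC R1 (0.0629). In TKO cells it was lost without TKO ESC 7-4-1 (0.0662), without TKO ESC Dutch (0.0685), without line Ta1-12 (0.0689) and with the cell line as a fixed block (0.0564).

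Notch2 had 1209, 757, 1424, 461 and 965 in TKO EB, against 292, 237 and 311 in TKO ESC. WT EB had 1283, 1208 and 866, against 295, 459 and 538 in WT ESC. The stages did not overlap in either genotype, and Dutch was the lowest EB array. Mean log2 intensity was 9.81 ± 0.64 in TKO EB, 10.11 ± 0.31 in WT EB, 8.12 ± 0.21 in TKO ESC and 8.71 ± 0.45 in WT ESC (SD; n = 5, 3, 3 and 3). TKO and WT overlapped at each stage, and the lowest TKO EB array lay within the WT ESC range. Notch2 rose by 1.69 ± 0.33 (adjusted p = 0.00233) in TKO cells, the largest rise among the 10 genes, and by 1.40 ± 0.37 (adjusted p = 0.0096) in WT cells. Both calls held under each of 29 other settings. The second probe set of Notch2 was too dim to test, with 2.27 to 37.1 over all arrays.

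Notch3 differed in pattern from the other receptors. Its brighter probe set had 1942, 1949, 1632, 1319.6 and 1215 in TKO EB, against 660.1, 689 and 613 in TKO ESC. In WT EB it had 1264, 2283 and 997, against 853, 1676 and 1586 in WT ESC. The 3 TKO ESC arrays were the lowest of all 14, close to each other, and overlapped with no other group, whereas WT ESC, WT EB and TKO EB overlapped. Mean log2 intensity was 10.63 ± 0.31 in TKO EB, 10.47 ± 0.62 in WT EB, 9.35 ± 0.09 in TKO ESC and 10.36 ± 0.54 in WT ESC (SD; n = 5, 3, 3 and 3). Notch3 rose by 1.28 ± 0.29 (adjusted p = 0.00504) in TKO cells, a call that held under each of 29 other settings. In WT cells the difference was 0.11 ± 0.32 (adjusted p = 0.793).

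Set against WT ESC, TKO ESC had a log2 fold change of -1.01 ± 0.32 in Notch3 (unadjusted p = 0.00842, adjusted p = 1), which did not pass. The change on differentiation was larger in TKO than in WT cells by 1.16 ± 0.43 (unadjusted p = 0.0195, adjusted p = 0.975), which did not pass either. With limma's array weights, which give less weight to arrays far from their group, Notch3 and Notch2 were lower in TKO ESC than in WT ESC (adjusted p = 0.00732 and 0.0425). That setting called 4.85% of all genes in this comparison. The second Notch3 probe set correlated with the first at r = 0.885 over 14 arrays. It had 305, 366 and 303 in TKO ESC, against 309.98, 524 and 635 in WT ESC, which overlapped at B21. Its change in TKO cells was 0.62 ± 0.28 (adjusted p = 0.0987), and in WT cells -0.19 ± 0.31 (adjusted p = 0.657).

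Notch4 was the receptor that fell. It had 71.5, 87.0, 73.3, 106 and 251 in TKO EB, against 145, 339 and 204 in TKO ESC. WT EB had 85.9, 120.3 and 63.1, against 273, 263 and 152 in WT ESC. The stages did not overlap in WT cells, and in TKO cells they overlapped through the EB array labelled Ta1-12, at 251. Mean log2 intensity was 6.70 ± 0.75 in TKO EB, 6.44 ± 0.47 in WT EB, 7.75 ± 0.61 in TKO ESC and 7.79 ± 0.47 in WT ESC (SD; n = 5, 3, 3 and 3). In TKO cells the difference was -1.05 ± 0.42 (adjusted p = 0.0692), and in WT cells Notch4 fell, at -1.35 ± 0.47 (adjusted p = 0.0347). The change in TKO cells differed from that in WT cells by 0.30 ± 0.64 (adjusted p = 0.979), which did not pass. Without the TKO EB array Ta1-12 the fall in TKO cells was -1.37 (adjusted p = 0.00880), and without line Ta1-12 it was -1.41 (adjusted p = 0.0289). With array weights it was -1.39 (adjusted p = 0.00787), in a fit that called 48.8% of all genes. The call in WT cells was lost without WT EB B21 (adjusted p = 0.0806), WT EB R1 (0.110), WT ESC B21 (0.107) or WT ESC J1 (0.0996), and with all genes tested (0.0565). The other probe sets of Notch4 lay between 16.3 and 56.6 and did not follow the first (r = -0.04 and 0.11), and the mean of all 3 gave -0.40 (adjusted p = 0.109).

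**Figure D2:**
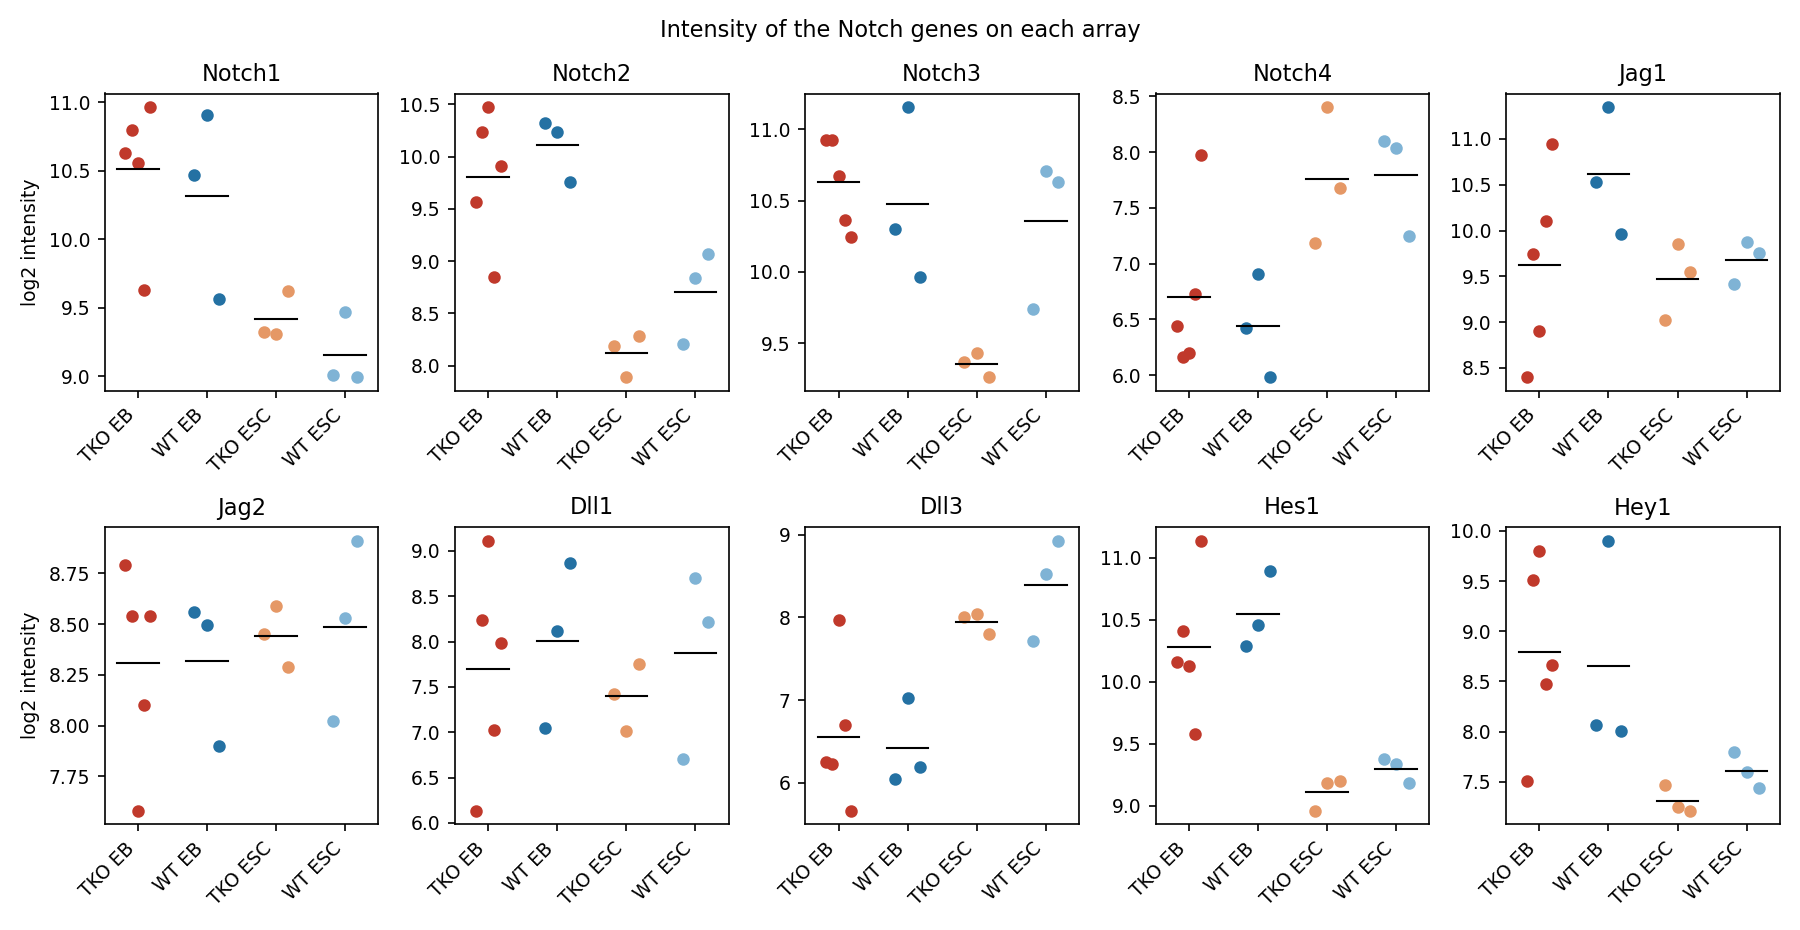
Log2 intensity (vertical axis, with its own range in each panel) of the brightest probe set of each Notch gene on each array (points), with the group mean (line), for TKO EB (n = 5), WT EB, TKO ESC and WT ESC (n = 3 each). The TKO ESC points of Notch3 lie below all others, and the EB points of Notch1, Notch2 and Hes1 lie above the ESC points of their genotype.

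Among the ligands Dll3 fell on differentiation in both genotypes, and Jag1, Jag2 and Dll1 passed the test in neither. Dll3, a divergent Delta ligand known from somite formation that acts inside the same cell, lies on chromosome 7 from 28293555 to 28301785. It had 74.8, 76.3, 249.96, 104 and 50.6 in TKO EB, against 258, 264 and 222 in TKO ESC. In WT EB it had 66.4, 131 and 73.3, against 211, 368 and 488 in WT ESC. WT EB and WT ESC did not overlap, and in TKO cells only the EB array of 7-4-1, at 249.96, reached the ESC range. Mean log2 intensity was 6.56 ± 0.87 in TKO EB, 6.43 ± 0.53 in WT EB, 7.95 ± 0.13 in TKO ESC and 8.39 ± 0.62 in WT ESC (SD; n = 5, 3, 3 and 3). Dll3 fell in TKO cells, at -1.39 ± 0.45 (adjusted p = 0.0285), and in WT cells, at -1.97 ± 0.50 (adjusted p = 0.00779), and the call in WT cells held under each of 29 other settings.

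In TKO cells the Dll3 call was less firm. It was lost without the TKO EB array of 2-55-2 (adjusted p = 0.0582), 14-14-4 (0.0527) or Ta1-12 (0.0548), and without the TKO ESC array of 7-4-1 (0.0819), Dutch (0.0849) or Ta1-12 (0.0646). It was also lost without TKO EB Dutch and 14-14-4 together (0.0624), without line Ta1-12 (0.102), with the cell line as a fixed block (0.0994) and with a fit of the TKO arrays alone (0.0547). The log2 fold changes in these fits ran from -1.47 to -1.17. The Dll3 promoter, at chr7:28301786-28302035 (minus strand), is shown because it carried an E-box of proneural factors, CAGCTG (in capitals), at position -7.
Dll3: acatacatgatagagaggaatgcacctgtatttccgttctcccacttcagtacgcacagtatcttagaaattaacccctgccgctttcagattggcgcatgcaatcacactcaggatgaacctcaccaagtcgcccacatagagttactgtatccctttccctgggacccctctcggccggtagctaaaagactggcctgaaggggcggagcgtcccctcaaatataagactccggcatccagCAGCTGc
The same letters were in the promoters of Jag1, at -82, and of Dll1, at -132 in the second of its 2 promoters, which made 3 of 9, beside 13.0% of all promoters.

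Jag1, the Jagged ligand of vessels, inner ear and bile ducts, lies on chromosome 2 from 137081451 to 137116520. Its brightest probe set had 859, 337, 478, 1099 and 1975 in TKO EB, against 1482, 2606 and 994 in WT EB. In TKO ESC it had 519, 922 and 746, against 682, 939.7 and 866 in WT ESC. TKO EB held both the lowest array, 14-14-4, and one of the highest, Ta1-12, with a log2 SD of 1.00, against 0.70 in WT EB. TKO EB against WT EB gave a log2 fold change of -0.99 ± 0.49 (adjusted p = 0.375), and without line Ta1-12 it was -1.33 (adjusted p = 0.0888). EB against ESC gave 0.15 ± 0.49 (adjusted p = 0.834) in TKO cells and 0.93 ± 0.55 (adjusted p = 0.184) in WT cells. By this probe set the stages did not overlap in WT cells. The other probe sets of Jag1 correlated with it at r = 0.736 and 0.885 over the 14 arrays, but their stages overlapped in both genotypes. EB against ESC gave 0.16 ± 0.26 and 0.46 ± 0.73 for them in WT cells, and -0.21 ± 0.23 and -0.45 ± 0.66 in TKO cells. In TKO EB versus WT EB the second brightest of the 3 gave -1.61 ± 0.66 (unadjusted p = 0.0290, adjusted p = 0.349). The dimmest gave -0.45 ± 0.23 (adjusted p = 0.408).

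Jag2, the second Jagged ligand, needed in limb and palate, lies on chromosome 12 from 112907803 to 112929812. Its brighter probe set had 372, 443, 191, 274 and 372 in TKO EB, against 350.2, 385 and 312 in TKO ESC. WT EB had 378, 361 and 239, against 260.01, 369 and 482 in WT ESC. All 4 groups overlapped, and the lowest array was TKO EB 7-4-1. EB against ESC gave -0.13 ± 0.29 (adjusted p = 0.747) in TKO cells and -0.17 ± 0.32 (adjusted p = 0.695) in WT cells. The second probe set gave -0.53 ± 0.38 (adjusted p = 0.297) in TKO cells and -0.82 ± 0.43 (adjusted p = 0.141) in WT cells.

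Dll1, the Delta ligand of neural progenitors and presomitic mesoderm, lies on chromosome 17 from 15367354 to 15376932. It had 303, 70.2, 554, 130.3 and 252 in TKO EB, against 172, 129 and 216 in TKO ESC. In WT EB it had 132, 278 and 465, against 104, 416 and 298 in WT ESC. Lines of 1 group spread more than the groups did, with a log2 SD of 1.15 in TKO EB, 0.91 in WT EB, 0.37 in TKO ESC and 1.04 in WT ESC. EB against ESC gave 0.30 ± 0.64 (adjusted p = 0.74) in TKO cells and 0.14 ± 0.72 (adjusted p = 0.89) in WT cells.

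Of the targets, Hes1 rose in both genotypes and Hey1 in TKO cells. Hes1, a repressor that holds back neural differentiation and oscillates in ESC, lies on chromosome 16 from 30065357 to 30067796. It had 1365, 1142, 1119.8, 765 and 2258 in TKO EB, against 498, 582 and 589 in TKO ESC. WT EB had 1254, 1411 and 1904, against 665, 648 and 582 in WT ESC. Every EB array lay above all 6 ESC arrays, with Dutch the lowest and Ta1-12 the highest of the TKO EB. Mean log2 intensity was 10.28 ± 0.57 in TKO EB, 10.55 ± 0.31 in WT EB, 9.12 ± 0.13 in TKO ESC and 9.30 ± 0.10 in WT ESC (SD; n = 5, 3, 3 and 3). Hes1 rose by 1.17 ± 0.28 (adjusted p = 0.0063) in TKO cells and by 1.25 ± 0.31 (adjusted p = 0.00679) in WT cells, and both calls held under each of 29 other settings.

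Hey1, a related repressor known from heart and vessel development, lies on chromosome 3 from 8663359 to 8667038. It had 728, 182, 894, 356 and 406 in TKO EB, against 177, 152 and 148 in TKO ESC. In WT EB it had 267, 959 and 257, against 223, 194 and 173 in WT ESC. ESC arrays of both genotypes were close together, while EB arrays were spread out, with 14-14-4 inside the WT ESC range, R1 and B21 not far above it, and J1, 7-4-1 and 2-55-2 highest. Hey1 rose by 1.49 ± 0.51 (adjusted p = 0.0367) in TKO cells, and in WT cells its difference was 1.05 ± 0.57 (adjusted p = 0.149), although the WT EB and WT ESC arrays did not overlap. With array weights Hey1 rose in WT cells too, by 1.18 (adjusted p = 0.0312), in a fit that called 58.7% of all genes in this comparison. With equal weights the change in TKO cells differed from that in WT cells by 0.44 ± 0.76 (adjusted p = 0.975). The call in TKO cells was lost without the TKO EB array of 2-55-2 (adjusted p = 0.0787), 7-4-1 (0.0728) or Ta1-12 (0.0509), or the TKO ESC array of 7-4-1 (0.0777), Dutch (0.0976) or Ta1-12 (0.103). It was also lost without line Ta1-12 (0.128), with all genes tested (0.0633) and with a fit of the TKO arrays alone (0.0503).

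Between genotypes, 0 of the 10 genes passed in TKO EB versus WT EB, in TKO ESC versus WT ESC, and for the difference between the changes on differentiation. In each of these comparisons 0% of all genes and 0% of all probe sets passed, so the count of 0 is that of the whole array. At an unadjusted p under 0.05 there were 0 Notch genes in EB, 1 in ESC (Notch3) and 1 for the difference (Notch3), beside 2034, 394 and 522 of all 14365 genes. TKO EB and WT EB overlapped in all 10 Notch genes, where 3.88% of all genes did not overlap. TKO ESC and WT ESC did not overlap in 1, Notch3, where 11.5% of all genes did not. Log2 fold changes of the other 9 genes ran from -0.59 ± 0.37 (Notch2) to 0.26 ± 0.36 (Notch1) in ESC. In EB, leaving aside Jag1, they ran from -0.31 ± 0.64 (Dll1) to 0.26 ± 0.42 (Notch4). Without line Ta1-12 at both stages, Hes1 in EB was at -0.48 ± 0.22 (adjusted p = 0.198) and Notch4 at -0.06 ± 0.35. Without TKO EB Dutch and 14-14-4, Hey1 in EB was at 0.67 ± 0.46 (adjusted p = 0.726). The Notch3 difference between changes was 1.21 ± 0.48 without Ta1-12 (adjusted p = 0.463) and 1.15 ± 0.47 without Dutch and 14-14-4 (0.992). The comparisons between genotypes share their arrays with the 2 comparisons of stages above.

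Within lines measured at both stages, 1 of the 10 genes, Notch3, had changes that did not overlap between genotypes, where 7.14% of all genes did not, so this count is near that of the whole array. Its log2 intensity in EB minus ESC was 1.31, 0.94 and 0.99 in TKO 7-4-1, Dutch and Ta1-12, against 0.57, 0.45 and -0.67 in WT B21, J1 and R1. The second probe set gave 0.78, 0.41 and 0.17 in these TKO lines, against 0.17, 0.20 and -0.92 in the WT lines, and overlapped. By their brightest probe sets, Hes1, Notch1, Notch2 and Hey1 were higher in EB in all 6 lines. The second Notch1 probe set was lower in EB in WT R1, at -0.40. Dll3 was lower in EB in all 6, though TKO 7-4-1 had a difference of -0.05. Notch4 was lower in 5 of 6, with 0.30 in Ta1-12.

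**Figure D3:**
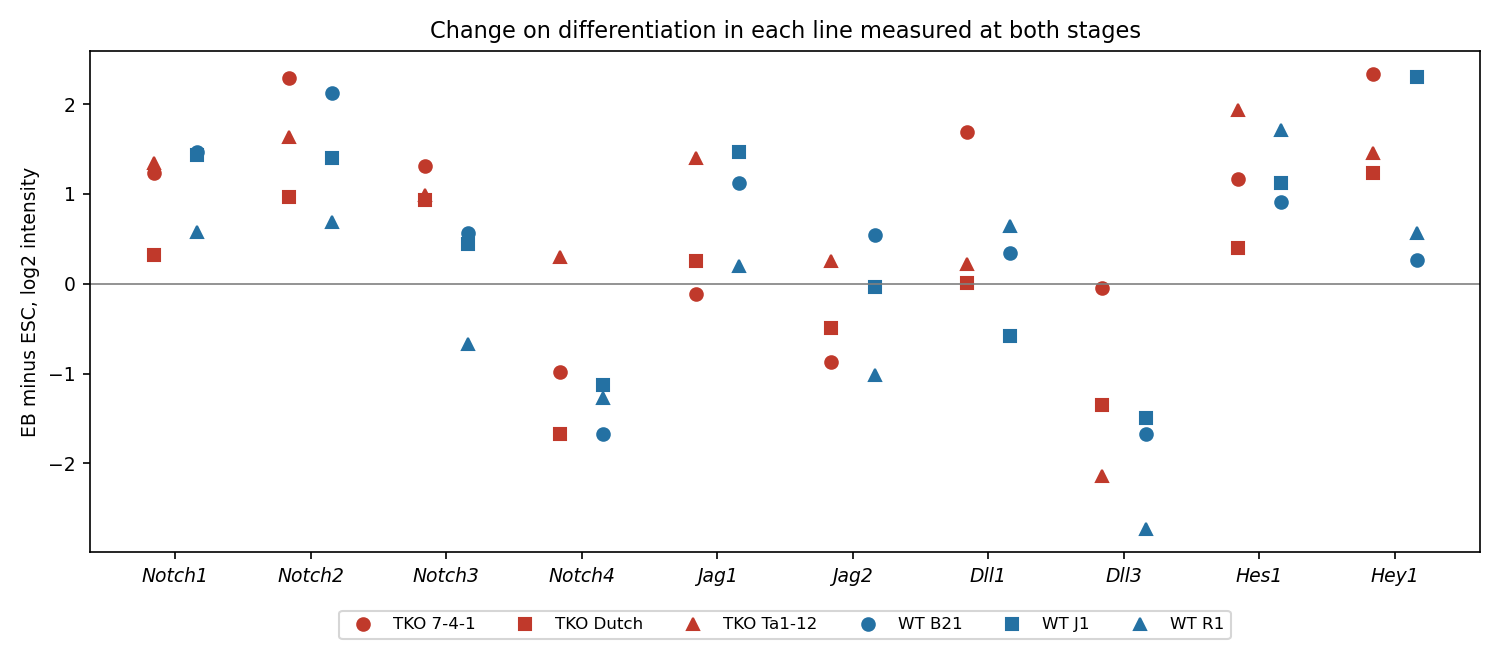
Log2 intensity in EB minus ESC (vertical axis) of each Notch gene in the 6 lines measured at both stages, with 3 TKO lines (red) left of 3 WT lines (blue). For Notch3 the TKO lines lie at 0.94 to 1.31 and the WT lines at -0.67 to 0.57; for Dll3 the TKO line 7-4-1 lies at -0.05 and the others at -1.35 or lower.

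The EB lines differed in the summed intensity of cell type markers, and some Notch genes, though not in every line, were high or low in the same arrays. In EB arrays 6 neural progenitor markers summed to 17162 in TKO EB 7-4-1, against 1176 to 6575 in the other TKO EB and 2814 to 8614 in WT EB. That array had the highest Dll1 (554) and Dll3 (249.96) of all EB, and the highest Hey1 (894) of the TKO EB. It also had the highest Neurog2 (758), a proneural factor that is itself 1 of the 6 markers summed, and Dner (1533), a neuronal Notch ligand. WT EB J1, with the next highest neural sum (8614), had the highest Hey1 (959) and the second highest Dll3 (131). Other lines did not follow this order. WT EB R1, with a neural sum of 2814, had the second highest Dll1 (465), above J1 (278), and TKO EB 2-55-2, with the third highest sum (6575), had Dll3 at 74.8. TKO EB 14-14-4, with the lowest neural sum (1176), had the lowest Dll1 (70.2) and Hey1 (182). Neurog2 and Sox1 were under 32 in 14-14-4 and Ta1-12, and the highest Hes1 (2258) was in Ta1-12. Neural progenitor markers summed to 330 to 639 in TKO ESC and 308 to 1184 in WT ESC, where Dll3 was at 222 to 264 and at 211 to 488. The 5 presomitic mesoderm markers, of a tissue where Dll1 and Dll3 act, summed to 274 to 773 in TKO EB, with 7-4-1 highest, and to 231 to 426 in WT EB. The part of these cells in the Notch values was not tested.

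The 10 endothelial markers summed to 7208 in TKO EB Ta1-12, against 1427 to 2983 in the other TKO EB and 2499 to 5229 in WT EB. In ESC they summed to 1588 to 2365 in TKO and 1322 to 2645 in WT cells, which overlapped with the EB sums. Cdh5, the cadherin of endothelium, was 3120 there, against 77.1 to 139.7 in the other TKO EB and 768 to 2459 in WT EB. This array had the highest Notch4 (251) and Hes1 (2258) of all EB and the highest Jag1 (1975) of the TKO EB. WT EB R1, with the next highest endothelial sum (5229), had the lowest Notch4 of all arrays (63.1). In TKO EB Dutch and 14-14-4, with the highest pluripotency sums of the EB, Dll3 was 103.7 and 76.3, against 222 to 264 in TKO ESC. Dutch was the lowest TKO EB array for Notch2 (461), Notch1 (792) and Hes1 (765).

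**Figure D4:**
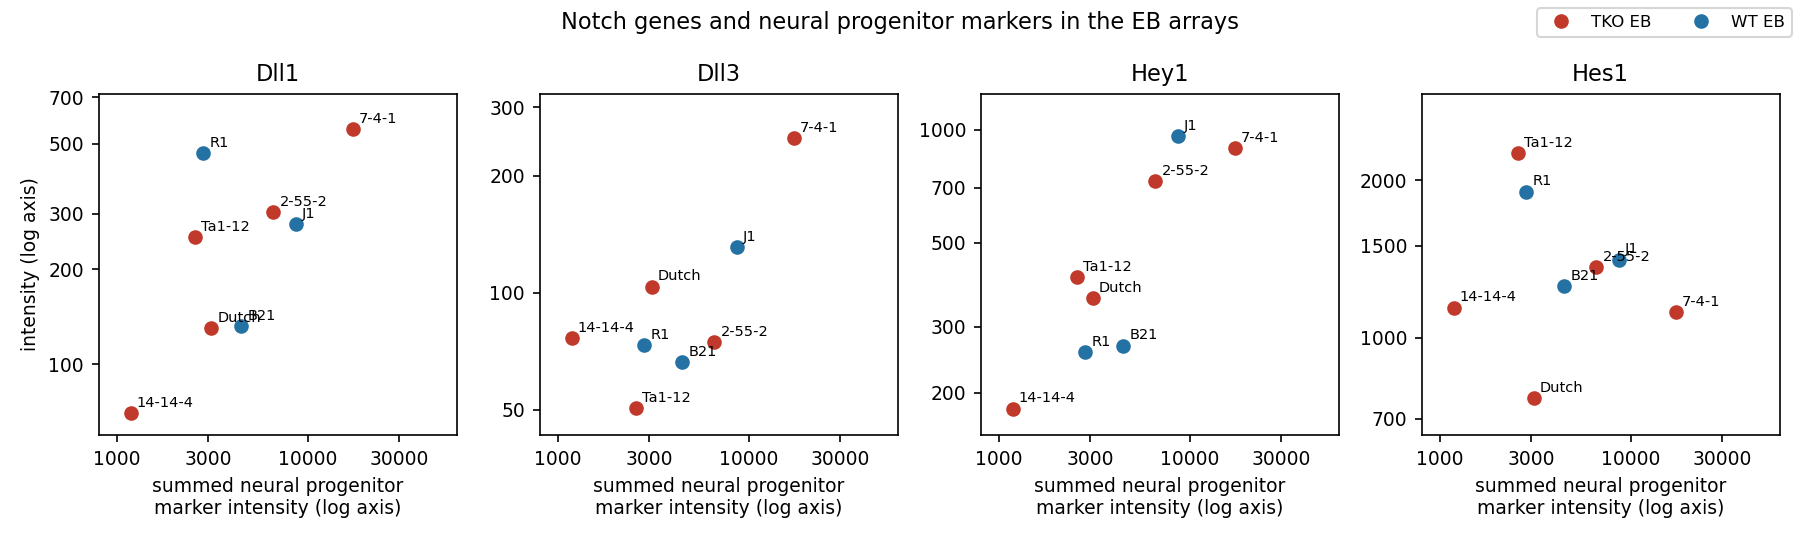
Intensity (vertical axis, log) of Dll1, Dll3, Hey1 and Hes1 in the 8 EB arrays against the summed intensity of 6 neural progenitor markers (horizontal axis, log), with the line beside each point. TKO EB 7-4-1 lies farthest right (17162) with the highest Dll1 (554) and Dll3 (249.96), while the highest Hes1 (2258) is in Ta1-12 at a marker sum of 2556.

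Other genes of the pathway were taken from a list of 58, of which 52 were tested. Of these, 15 rose and 7 fell in TKO EB versus TKO ESC, with a median log2 fold change of 0.24, and 15 rose and 5 fell in WT EB versus WT ESC, with a median of 0.48. In TKO versus WT cells, and for the difference between the changes, 0 passed. Rises made up 20.8% of all genes tested in TKO cells and 26.2% in WT cells, and falls 14.9% and 17.4%.

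Of 8 genes that cut and modify the receptors, 4 rose and 1 fell in TKO cells, and 5 rose and 1 fell in WT cells. Adam10, the protease that cuts ligand-bound receptors, rose by 2.11 ± 0.31 in TKO cells (adjusted p = 0.000451) and by 2.66 ± 0.35 in WT cells (adjusted p = 0.000269). Furin, which cuts new receptors before they reach the surface, rose by 2.19 ± 0.41 in TKO and 1.99 ± 0.45 in WT cells. Pofut1, which adds O-fucose to them, rose by 1.06 ± 0.23 in TKO and 1.34 ± 0.26 in WT cells. Mfng, a Fringe enzyme that extends that sugar, fell, at -1.30 ± 0.42 in TKO and -1.74 ± 0.47 in WT cells. In the gamma-secretase complex, 3 of 5 tested subunits rose in both genotypes, namely Aph1b, Ncstn and Psenen, with Aph1b at 2.52 ± 0.50 in TKO and 3.16 ± 0.56 in WT cells. Psen2 and Aph1a passed in neither.

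Among other ligands Dlk1, a Delta-like protein without the usual receptor-binding domain, had the smallest adjusted p of the list, with 8368 to 20898 in TKO EB, against 43.0 to 54.1 in TKO ESC. WT EB had 10817 to 16133, against 51.7 to 167 in WT ESC. No array of 1 stage overlapped with the other, and the log2 fold change was 8.29 ± 0.36 in TKO and 7.09 ± 0.40 in WT cells. Dll4, the Delta ligand of arteries, was dim, with 26.5 to 126 over all arrays, and passed in neither. Of 4 genes of ligand endocytosis, 2 rose in TKO cells, namely Mib1 (0.83 ± 0.25) and Neurl1b (2.60 ± 0.53), ubiquitin ligases that act on ligands. In WT cells Mib1 had 0.68 ± 0.28 and Neurl1b 1.19 ± 0.59 without passing.

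Of the nuclear genes, 2 rose in both genotypes. Maml1, the co-activator, rose by 1.01 ± 0.31 in TKO and 1.26 ± 0.35 in WT cells, and Ctbp1, a co-repressor, by 1.06 ± 0.18 in TKO and 1.17 ± 0.20 in WT cells. Rbpj fell, at -0.39 ± 0.12 in TKO and -0.47 ± 0.13 in WT cells, as did Ctbp2, the relative of Ctbp1, at -0.97 ± 0.11 in TKO and -1.12 ± 0.12 in WT cells. Kat2b, an acetyltransferase, fell in TKO cells (-0.95 ± 0.28), where WT cells had -0.76 ± 0.32 without passing (adjusted p = 0.0685). In receptor turnover Dtx1, a Deltex ubiquitin ligase, fell in both, at -2.10 ± 0.53 in TKO and -2.74 ± 0.60 in WT cells. Fbxw7, which marks the freed receptor for breakdown, fell in TKO cells (-0.42 ± 0.15). WT cells had nearly the same value for Fbxw7, -0.42 ± 0.17, without passing (adjusted p = 0.0566). Dtx3 rose in WT cells (1.12 ± 0.28), where TKO cells had 0.45 ± 0.25 without passing. The group of other targets also holds Tle genes, partners of HES proteins rather than targets. Of its 14 tested, Gata3, a target in T cells, rose in both, at 2.92 ± 0.40 in TKO and 2.54 ± 0.45 in WT cells. Hey2 (1.83 ± 0.47) and Nrarp (1.14 ± 0.39), a target that feeds back on the receptor complex, rose in TKO cells, where WT cells had 1.15 ± 0.52 for Hey2 and 0.86 ± 0.43 for Nrarp without passing. Tle4 fell, at -1.12 ± 0.23 in TKO and -1.27 ± 0.26 in WT cells. Tle2 rose in WT cells (1.28 ± 0.31), where TKO cells had 0.24 ± 0.28 without passing. Hes5, the neural Hes gene, lay between 75.2 and 185 over all arrays and passed in neither.

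The smallest adjusted p of the list in TKO EB versus WT EB was 0.303, for Dtx3 (-0.73 ± 0.25) and Tle2 (-0.81 ± 0.28), followed by Adam10 (-0.87 ± 0.31) and Aph1b (-1.38 ± 0.50) at 0.308. In TKO ESC versus WT ESC all adjusted p of the list were 1, the lowest unadjusted being those of Hes2 (0.0310) and Dlk1 (0.0329).

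**Figure D5:**
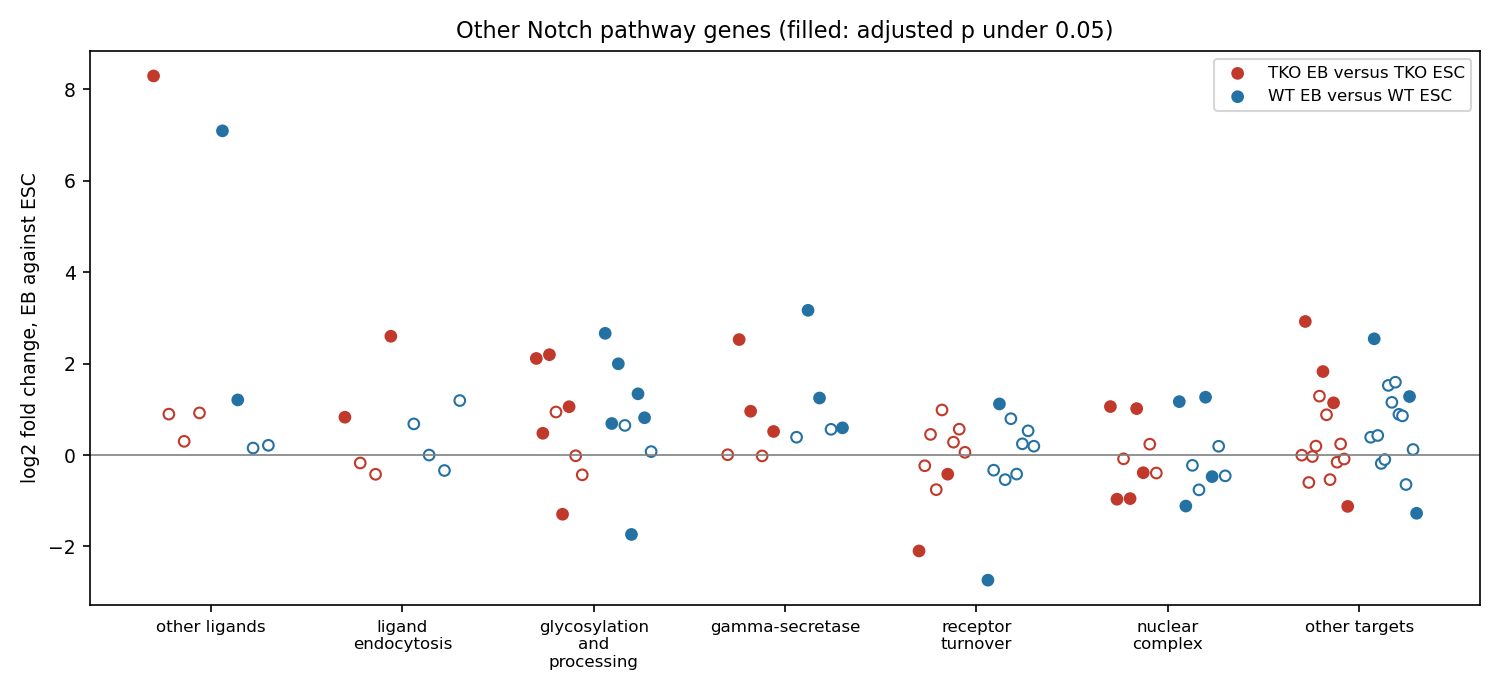
Log2 fold change of EB against ESC (vertical axis) of the 52 other pathway genes tested, by group of the list (horizontal axis), in TKO (red) and WT cells (blue, right of them). Filled points passed an adjusted p of 0.05, 22 in TKO and 20 in WT cells; Dlk1 (8.29 and 7.09) lies far above all others.

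The genes most like each member were ranked by Pearson's r of log2 intensity over the 14 arrays, which share lines and the step from ESC to EB. They were Armcx3 and Parp8 for Notch2 (r = 0.984 each), Adam10 and Sema6d for Hes1 (0.968 and 0.967), Creb5 and Cdk5r1 for Hey1 (0.960 and 0.939), Auts2 and Cggbp1 for Notch1 (0.953 and 0.950) and Maz and Tmem59l for Dll3 (0.951 and 0.945). For Jag1 they were Alox12 and Hint2 (0.931 and 0.907), for Notch3 Has2 and Tap1 (0.906 and 0.883), for Jag2 Slc15a2 and Card10 (0.899 and 0.793), for Notch4 Rhbdl2 and Tst (0.879 and 0.878) and for Dll1 Mex3d and Zfp668 (0.850 and 0.775). Over the 8 EB arrays alone Tap1 and Notch3 had an r of 0.396, and the other pairs had 0.738 to 0.976.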

How the data were processed

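Affymetrix arrays were hybridised with biotin-labelled total RNA (Trizol extracts), per the labels' protocols. The deposited values are linear intensity values per probe set, which the authors had already summarised from probes. The sources used here do not give the background correction, scaling or summary method, and the scale is known only from the values.

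Values under 32 were raised to 32 and log2 was taken with no further scaling, since array medians differed by 0.374 on that scale. Fold changes of dim genes are understated by this floor. Gene symbols came from the platform annotation (34958 probe sets with 1 symbol, 932 with several, 9211 with none), with Entrez identifiers matched to RefSeq for 34754 and 0 symbols changed. The probe set with the highest mean stood for a gene. Genes above the 40th percentile of the array on at least 3 arrays were tested, which left 14365, and a second fit covered 31122 probe sets.

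The fit gave each group its mean and used all 14 arrays; it was made in R 4.3.3 with the package limma 3.58.1, with a trended eBayes. Benjamini-Hochberg adjustment ran over all genes of a comparison, with a threshold of 0.05. Errors of fold changes are standard errors of this fit, in which all groups share 1 spread. The series text calls the lines biological replicates, and their number limits the precision. The procedure was tested on simulated data.

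Line names pair the arrays of 6 lines. Deviations from the group mean correlated between stages at 0.066, 0.196 and 0.090 in TKO 7-4-1, Dutch and Ta1-12 and at -0.046, -0.078 and -0.037 in WT B21, J1 and R1.

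The members, the pathway and marker lists, the tests and the alternatives were chosen with earlier results of these data known. The members were named by all their probe sets, up to 4 other pathway genes with the smallest adjusted p per comparison were to be named, and further pathway genes were named after their values were seen. For each member the 2 genes with the highest r were named, leaving out clones. Some listed genes are not analysed here, nor are Hes1 and Hey1 promoters.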

Additional observations from a re-analysis of the deposited data

How the results depend on the processing

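Of the recomputed fold changes of the 10 Notch genes, over 5 comparisons and up to 29 other settings, 1389 kept their side of the threshold, 33 lost a call and 8 gained one, and 0 calls changed direction. The calls of Notch2, Notch3 and Hes1 in TKO cells and of Notch2, Dll3 and Hes1 in WT cells held under every setting run. Leaving out 1 array at a time gave 3 to 6 called genes and 3 to 8 called probe sets in TKO EB versus TKO ESC, and 3 to 5 genes and 3 to 5 probe sets in WT EB versus WT ESC. The counts of 3 came without TKO ESC 7-4-1 or Dutch and without WT EB B21 or WT ESC B21, and without TKO ESC Dutch 4 probe sets passed. The share of all genes called fell in the same fits. It was 25.1% and 25.7% in TKO cells, beside 35.7% with all arrays. In WT cells it was 31.9% and 32.8%, beside 43.6%. Between genotypes and for the difference of changes the fits without 1 array gave 0. Limma's array weights gave 2 called genes in TKO ESC versus WT ESC (697 of all genes, beside 0 with equal weights), and the cause was not tested. With the cell line as a fixed block, 4 genes passed in TKO and 5 in WT cells (3148 and 5360 of all genes, beside 5132 and 6260 with no block), and the difference of changes had 0. With the line as a random block, whose estimated correlation was 0.032, 6 and 5 passed (36.5% and 44.6% of all genes). Apart from Notch1 and Dll3 in TKO cells, the pairing changed no call of a Notch gene. Without line Ta1-12, 1101 of the 14365 genes tested passed in TKO EB versus WT EB, 0 of them Notch genes. Quantile normalization placed the median log2 fold change of all genes at -0.04 in TKO and -0.07 in WT cells, beside 0.08 and 0.13 as deposited, and centring on array medians placed it at -0.04 and -0.07.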

Other observations

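Of the other genes of the pathway, Neurl1b, Hey2 and Hes5 were highest among EB arrays in TKO 7-4-1, the array with the highest Dll1 and Dll3. Nrarp was highest in TKO EB Ta1-12 and Heyl in WT EB J1. These genes were picked after their values were seen and are given without a test. Neurl1b was 831 in TKO EB 7-4-1, against 181 to 422 in the other TKO EB and 69.98 to 189 in WT EB. Hey2 was 452 there, against 75.1 to 276 in the other TKO EB and 124 to 196 in WT EB. Hes5 was 185, against 81.9 to 131 in the other TKO EB and 75.2 to 124 in WT EB. Nrarp was 831 in TKO EB 7-4-1 and 856 in TKO EB Ta1-12, against 258 to 389 in the other TKO EB and 411 to 534 in WT EB. Heyl, a further target, was highest in WT EB J1 at 432, while the TKO EB had 34.5 to 172 and WT EB B21 and R1 had 80.5 and 55.9.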
